A study of Mus musculus with 16 samples.

Results

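The NF-kB subunits and the feedback inhibitors that they induce were examined as a family of 10 genes in cMyc+ germinal center (GC) B cells. The members were the subunit genes Nfkb1, Nfkb2, Rel, Rela and Relb, the IkB family genes Nfkbia, Nfkbie and Nfkbiz, and the feedback genes Tnfaip3 and Traf1. Each symbol matched 1 row of the expression table, so that all 10 members were found among 51912 genes, and all 10 passed the filter of a mean normalized count of at least 10 that left 12505 genes for testing. The cells came from spleens of male and female cMyc gfp/gfp mice on a C57BL/6J background, 6 to 15 weeks old, on day 7 after intraperitoneal injection of 200000000 sheep red blood cells. In these mice a GFP-cMyc fusion protein is made from the endogenous locus, so that every subpopulation carries the reporter and no cells without it were compared. All sorted cells were B220+ CD38low CD95+ cMycGFP+. The cMyc+prePB cells were CD69hi, the cMyc+early cells CD23hi CD21/35hi, the cMyc+lateCD23int cells CD23int CD21/35int and the cMyc+lateCD23lo cells CD23lo CD21/35lo, with CXCR4hi CD86lo dark zone cells gated out of the last 3. Each of the 4 subpopulations had 4 libraries of total RNA, numbered 1 to 4, which gave 16 libraries. The labels do not say which animals a library was made from, so the p-values below measure only the spread between these libraries.

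NF-kB transcription factors are dimers of Rel family proteins. In resting B cells most dimers are held in the cytoplasm by IkB proteins, and signals from the B cell receptor and CD40 activate IkB kinases that mark these inhibitors for degradation, while CD40 and BAFF receptor signals also drive the processing of the Nfkb2 product in a slower branch. The freed dimers induce the genes of their own inhibitors, among them Nfkbia (IkB alpha), Nfkbie (IkB epsilon) and Tnfaip3 (A20, a ubiquitin-editing enzyme that dampens upstream signaling), and this closes a negative feedback loop. In the GC these signals are received mainly in the light zone during positive selection, where Rel and Rela have separable roles in maintaining the reaction and in forming plasma cells.

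Because the members are known both as components and as targets of the pathway, their promoters were searched for the kB consensus, the DNA motif bound by NF-kB dimers. RefSeq promoter windows of build GRCm38.p6, which reach from 250 bases before to 50 bases after a start, were found for 7 of the 10 members (10 windows) and not for Nfkb1, Relb and Nfkbiz. At least 1 match of 10 bases on either strand was present in 5 of these 7 genes, compared with 9.55% of all 27025 genes in the RefSeq table, and in 7 of the 10 windows, compared with 8.46% of all 32851 windows. At least 2 matches in 1 window, overlapping ones included, were present in 3 of the 7 genes, compared with 1.42% of all genes. The last 130 bases before the start are shown for the 5 windows in which a match lay in that stretch, with the matched bases in capitals.
Nfkbia (chr12:55492648-55492777, minus strand): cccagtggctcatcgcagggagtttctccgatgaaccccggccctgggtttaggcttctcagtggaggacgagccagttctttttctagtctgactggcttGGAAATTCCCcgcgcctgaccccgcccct
Nfkbie (chr17:45555570-45555699, plus strand): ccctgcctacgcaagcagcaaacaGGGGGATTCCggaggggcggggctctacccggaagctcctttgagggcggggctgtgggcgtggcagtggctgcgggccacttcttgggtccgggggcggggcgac
Rel (chr11:23770970-23771099, minus strand): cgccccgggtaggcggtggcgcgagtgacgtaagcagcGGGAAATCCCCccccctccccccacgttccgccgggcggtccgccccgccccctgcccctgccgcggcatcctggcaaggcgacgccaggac
Nfkb2 (chr19:46304607-46304736, plus strand): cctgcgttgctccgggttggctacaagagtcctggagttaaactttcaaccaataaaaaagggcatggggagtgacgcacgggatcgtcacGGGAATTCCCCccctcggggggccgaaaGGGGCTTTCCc
Tnfaip3 (chr10:19015411-19015540, minus strand): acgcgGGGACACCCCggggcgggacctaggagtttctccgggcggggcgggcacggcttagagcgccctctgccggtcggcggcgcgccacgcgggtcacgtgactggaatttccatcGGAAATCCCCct
The match in Nfkbia began at position -29 from the start and that in Nfkbie at position -106. The capitals in Rel cover 2 overlapping matches at positions -92 and -91, and the first capitals in Nfkb2 cover 2 overlapping matches at positions -39 and -38. Nfkb2 had matches in all 3 of its windows, and the match at position 11 of the second window and that at position -225 of the third are the same bases, since these windows overlap. The windows of Rela and Traf1 and the second window of Tnfaip3 held no match, which says only that these letters are not in these windows.

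**Figure D1:**
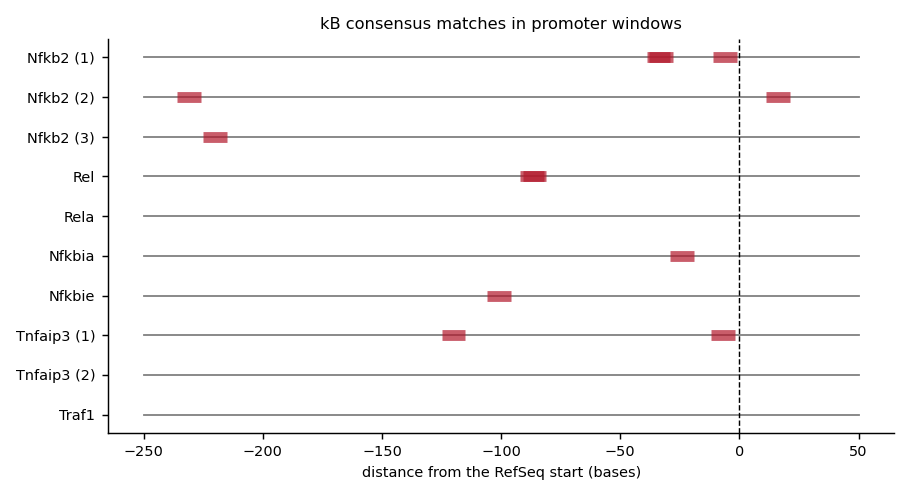
Positions of kB consensus matches (red) in the 10 RefSeq promoter windows (grey lines) of 7 members, with the distance from the start in bases on the x axis and a dashed line at the start. Matches overlap at 1 place each in Rel and in the first window of Nfkb2, and the windows of Rela and Traf1 hold none.

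The libraries held 19812080 to 25795815 recovered reads, and mitochondrial genes took 1.34% to 2.95% of normalized counts. The libraries differed in base composition. The GC tilt of a library was taken as the median log2 deviation from each gene's mean over the 20% of tested genes with the highest GC content (at least 54.5%), minus that over the 20% with the lowest (at most 43.1%), and it ranged from -0.50 to 0.69. It ranged from -0.35 to 0.69 in cMyc+prePB, from -0.35 to 0.51 in cMyc+early, from -0.50 to 0.62 in cMyc+lateCD23int and from -0.34 to -0.033 in cMyc+lateCD23lo, so that all 4 cMyc+lateCD23lo libraries lay below 0. Every number 1 library also lay below 0. Values after centring each library within 20 bins of GC content are therefore given beside the results, an alternative chosen after the data were seen. Of the sorting markers at the RNA level, Cd69 overlapped between cMyc+prePB (2439 to 5346 normalized counts) and each other subpopulation, whereas Fcer2a, which encodes CD23, was lower in every cMyc+lateCD23lo library (1285 to 3953) than in every cMyc+early library (9454 to 17966). Cr2, which encodes CD21/35, overlapped between cMyc+lateCD23lo (2633 to 8993) and cMyc+early (5463 to 9350). The summed level of 6 myeloid markers was 753 to 1445 in cMyc+lateCD23lo and 203 to 825 elsewhere, with 3 of the 6 highest in cMyc+lateCD23lo and with both Itgam and Csf1r at 0 in 3 of its 4 libraries. The summed level of 6 plasma cell markers was 37257 to 111294 in cMyc+prePB, 23488 to 30149 in cMyc+early, 31588 to 59105 in cMyc+lateCD23int and 56149 to 90119 in cMyc+lateCD23lo, with the means of Sdc1, Xbp1, Irf4 and Tnfrsf17 highest in cMyc+prePB and those of Prdm1 and Jchain in cMyc+lateCD23lo. Tnfrsf17 was at 0 in 15 of the 16 libraries, and the cMyc+prePB mean of Sdc1 came almost wholly from library 2 (107.5 normalized counts). The summed level of 5 naive B cell markers was 2660 to 6621 in cMyc+early and 1651 to 4411 elsewhere. Of these 5, 4 were highest in cMyc+early, and 1 passed in limma across the 4 subpopulations. For 9 GC B cell markers the sum was 84860 to 128716 in cMyc+prePB, below every cMyc+lateCD23int library (129713 to 211306). It was 102166 to 155199 in cMyc+early and 113218 to 165437 in cMyc+lateCD23lo, and 0 of the 9 passed across the 4 subpopulations in limma. Summed T cell markers were at 1313 to 2057 in cMyc+prePB and 1416 to 3194 elsewhere, with 4 of 6 highest in cMyc+prePB. NK cell markers summed to at most 62.2. Summed erythroid markers ranged from 165 to 4954 and were highest in library 4 of cMyc+prePB, cMyc+early and cMyc+lateCD23int. The part of these cells in the results below was not tested, and in sorted bulk RNA fewer cells of a type and less RNA per cell cannot be told apart.

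Per kb of exon, Nfkbia was by far the most abundant member, with a mean of 5695 normalized counts per kb over the 16 libraries (range 3111 to 8556). It exceeded the next member, Nfkbie, in all 16 libraries. Nfkbie (482 per kb) and Rel (356 per kb) did not keep an order, since Nfkbie was above Rel in 8 of 16 libraries. Rel was above Nfkb1 (203 per kb) in 15 of 16, and Nfkb1 above Traf1 (181 per kb) in 13 of 16. Below them, Rela was at 137 per kb, Nfkb2 at 96.1 and Tnfaip3 at 95.9, and Nfkb2 was above Tnfaip3 in 6 of 16 libraries. Nfkbiz (51.0 per kb) and Relb (41.3 per kb) had the lowest levels, with Nfkbiz above Relb in 12 of 16. By this measure Rel had the highest mean level among the subunits and Relb the lowest. The length used was that of all annotated exons of a gene merged. For Nfkb1 it was 12061 bases and for Traf1 8819, where their longest transcripts have 4149 and 3436. For Rel it was 7466 by either length. Whether Rel lies above or below Nfkb1 and Traf1 therefore depends on the length used. The spread was widest for Rela, whose highest library was 10.5 times its lowest, and narrowest for Nfkb1, at 1.73 times.

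None of the 10 members passed an adjusted p-value of 0.05 in any of the 8 comparisons in the main limma fit, which did not use library numbers. In the comparison across the 4 subpopulations, 0 members passed, where 51 of 12505 genes (0.408%) did, and 6 members had an unadjusted p-value under 0.05, compared with 10.2% of all genes. These were Nfkb2, Rel, Nfkbia, Nfkbie, Tnfaip3 and Traf1. By edgeR on the recovered reads 0 members passed in each of the 8 comparisons as well, while DESeq2, which called 265 genes (2.12%) across the 4 subpopulations, called Nfkbia (adjusted p = 0.0149) and Traf1 (adjusted p = 0.0214). The fold changes below are on the scale of log2(normalized count + 1), and ± is the standard error of the limma fit unless SD is stated.

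**Figure D2:**
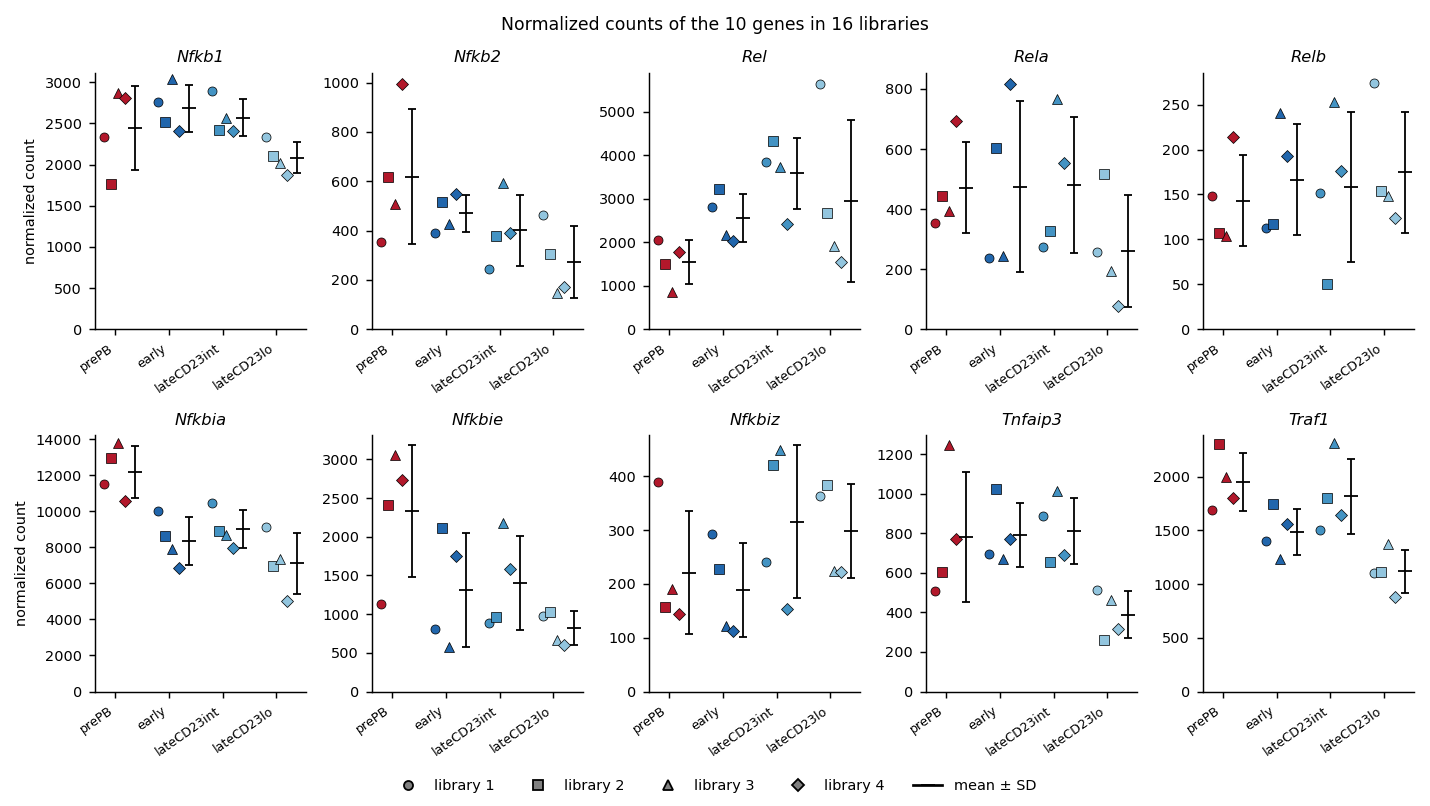
Normalized counts (y axis, from 0) of the 10 members in the 4 libraries of each subpopulation (x axis), with 1 symbol per library number, and the mean ± SD beside them. The Nfkbia counts of the 4 cMyc+prePB libraries (10569 to 13776) lie above those of the other 12 (5008 to 10455), and the Tnfaip3 and Nfkb1 counts of the cMyc+lateCD23lo libraries lie below those of cMyc+early and cMyc+lateCD23int.

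Among the IkB family and feedback genes, Nfkbia, Nfkbie and Traf1 had their highest means in cMyc+prePB and their lowest in cMyc+lateCD23lo. Nfkbia (ENSMUSG00000021025, minus strand of chr12:55489410-55492647 in GRCm38) encodes IkB alpha, the inhibitor that is degraded and resynthesized fastest. Its normalized counts were 11493, 12953, 13776 and 10569 in cMyc+prePB, 10019, 8652, 7891 and 6861 in cMyc+early, 10455, 8924, 8689 and 7974 in cMyc+lateCD23int and 9126, 6951, 7375 and 5008 in cMyc+lateCD23lo. All 4 cMyc+prePB libraries lay above the other 12, a separation that 41 of 12505 genes (0.328%) showed in that direction, although the lowest cMyc+prePB library and the highest of the others were close to each other. In each of the other 3 subpopulations, library 1 was the highest and library 4 the lowest. The log2 difference to the other 3 was 0.60 ± 0.14 (limma adjusted p = 0.0783), and that to cMyc+lateCD23lo alone was 0.80 ± 0.17 (limma adjusted p = 0.0512). DESeq2 put both below 0.05 (adjusted p = 0.00871 and 0.00306). Centring in GC bins gave differences of 0.52 and 0.67 (adjusted p = 0.237 and 0.193), and the subpopulations then overlapped. The cMyc+prePB libraries then ranged from 9090 to 12202 and the highest other library, of cMyc+lateCD23int, stood at 11483. Before centring, Nfkbia had a correlation of -0.29 with the GC tilt within subpopulations.

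Nfkbie (ENSMUSG00000023947, plus strand of chr17:45555703-45563169) encodes IkB epsilon, an inhibitor that prefers Rel and Rela dimers. Its normalized counts were 1125, 2413, 3059 and 2729 in cMyc+prePB, 811, 2114, 574 and 1748 in cMyc+early, 882, 966, 2183 and 1588 in cMyc+lateCD23int and 981, 1028, 661 and 598 in cMyc+lateCD23lo. Only cMyc+lateCD23lo was below cMyc+prePB without overlap, and the libraries of cMyc+early and cMyc+lateCD23int were spread widely. The log2 difference was 1.04 ± 0.33 to the other 3 (limma adjusted p = 0.228) and 1.46 ± 0.41 to cMyc+lateCD23lo (limma adjusted p = 0.147). The level of Nfkbie followed the GC tilt of the libraries, with a Pearson correlation of 0.91 within subpopulations over the 16 libraries, in which the libraries are shared by all genes. After centring in GC bins the separation from cMyc+lateCD23lo remained (1297 to 2625 against 633 to 1032), with a log2 difference of 1.23 (adjusted p = 0.0952).

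Nfkbiz (ENSMUSG00000035356, minus strand of chr16:55811375-55838899), which encodes the nuclear IkB zeta, a cofactor of NF-kB at secondary response genes, showed no such order. Its counts were 390, 158, 191 and 144 in cMyc+prePB, 292, 228, 122 and 112 in cMyc+early, 241, 421, 448 and 153 in cMyc+lateCD23int and 364, 384, 223 and 221 in cMyc+lateCD23lo. All subpopulations overlapped, and the log2 difference of cMyc+prePB to the other 3 was -0.26 (95% interval -1.04 to 0.51, limma adjusted p = 0.826).

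Among the subunits, Rel had its lowest mean in cMyc+prePB, whereas Nfkb2 had its highest there. Rel (ENSMUSG00000020275, minus strand of chr11:23736847-23770970) encodes c-Rel, the subunit most restricted to lymphoid cells. Its counts were 2046, 1511, 858 and 1775 in cMyc+prePB, 2816, 3216, 2177 and 2033 in cMyc+early, 3843, 4328, 3732 and 2408 in cMyc+lateCD23int and 5640, 2666, 1917 and 1553 in cMyc+lateCD23lo. Every cMyc+prePB library was below every cMyc+lateCD23int library, a separation that 344 of 12505 genes (2.75%) showed in that direction, while cMyc+lateCD23lo spanned a wide range, with library 1 far above the other 3. The log2 difference of cMyc+prePB was -0.94 ± 0.28 to the other 3 (limma adjusted p = 0.176) and -1.25 ± 0.34 to cMyc+lateCD23int (limma adjusted p = 0.200). DESeq2 called both (adjusted p = 0.0341 and 0.0352). With centring in GC bins the log2 differences were -0.86 (adjusted p = 0.231) and -1.17 (adjusted p = 0.256), and every cMyc+prePB library (914 to 1962) was below every cMyc+early library (2079 to 3450) and every cMyc+lateCD23int library (2527 to 3950).

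Nfkb2 (ENSMUSG00000025225, plus strand of chr19:46304320-46312385) encodes p100, the precursor of p52 in the slower branch. Its counts were 354, 618, 508 and 995 in cMyc+prePB, 389, 517, 425 and 549 in cMyc+early, 244, 379, 592 and 389 in cMyc+lateCD23int and 463, 307, 148 and 173 in cMyc+lateCD23lo. The means ran in that order from 618 ± 273 (SD, n = 4) to 273 ± 145 (SD, n = 4), but neighbouring subpopulations overlapped at each step. The log2 difference of cMyc+prePB was 0.71 ± 0.32 to the other 3 (limma adjusted p = 0.409) and 1.23 ± 0.39 to cMyc+lateCD23lo (limma adjusted p = 0.210), and the latter was 0.85 after centring in GC bins. Exons of Nfkb2 overlap those of 2 antisense genes, Psd over 299 bases (mean 21.6 normalized counts) and AC114539.1 over 531 bases (not measured here). The use of strand in the counting is not given in the sources used here, so that their reads could not be told apart there.

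Rela (ENSMUSG00000024927, plus strand of chr19:5637483-5648130), which encodes p65, the strongest activator of the family, varied mostly between libraries of the same subpopulation. Its counts were 354, 444, 395 and 693 in cMyc+prePB, 236, 603, 244 and 815 in cMyc+early, 273, 328, 766 and 553 in cMyc+lateCD23int and 258, 516, 193 and 77.5 in cMyc+lateCD23lo. The first 3 means lay between 471 and 480 and the last at 261, with overlap between all subpopulations. Against cMyc+lateCD23lo the log2 difference of cMyc+prePB was 1.10 ± 0.53 (limma adjusted p = 0.393), which was 0.73 after centring in GC bins, and the correlation of Rela with the GC tilt was 0.72 within subpopulations over the 16 libraries.

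Nfkb1 (ENSMUSG00000028163, minus strand of chr3:135584655-135691547), which encodes p105, the precursor of p50, was the steadiest member. Its counts were 2339, 1765, 2873 and 2806 in cMyc+prePB, 2761, 2522, 3044 and 2406 in cMyc+early, 2893, 2420, 2559 and 2404 in cMyc+lateCD23int and 2330, 2103, 2015 and 1878 in cMyc+lateCD23lo. The cMyc+lateCD23lo libraries lay below every cMyc+early and cMyc+lateCD23int library, with log2 differences of 0.36 ± 0.17 and 0.30 ± 0.17 (limma adjusted p = 0.455 and 0.814). Between cMyc+prePB and the other 3, the log2 difference of -0.012 (95% interval -0.30 to 0.27) took either sign depending on the scaling, and was 0.036 after rescaling to the same total and 0.038 after centring in GC bins. Relb (ENSMUSG00000002983, minus strand of chr7:19606217-19629438), the partner of p52, was the lowest subunit, at 148, 108, 104 and 214 in cMyc+prePB, 113, 118, 241 and 193 in cMyc+early, 151, 50.9, 253 and 177 in cMyc+lateCD23int and 274, 153, 149 and 123 in cMyc+lateCD23lo. No order of the subpopulations was apparent, and its log2 difference between cMyc+prePB and the other 3 was -0.16 (95% interval -1.01 to 0.70).

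For the feedback genes Tnfaip3 and Traf1, as for Nfkb1, the cMyc+lateCD23lo libraries lay below those of cMyc+lateCD23int without overlap. Tnfaip3 (ENSMUSG00000019850, minus strand of chr10:19000910-19015657) was at 509, 602, 1245 and 769 normalized counts in cMyc+prePB, 697, 1024, 671 and 769 in cMyc+early, 889, 656, 1012 and 692 in cMyc+lateCD23int and 512, 260, 463 and 316 in cMyc+lateCD23lo. The first 3 subpopulations overlapped, and only 1 cMyc+prePB library came below the highest cMyc+lateCD23lo library. The log2 difference to cMyc+lateCD23lo was 0.98 ± 0.30 from cMyc+prePB, 1.06 ± 0.30 from cMyc+early and 1.10 ± 0.30 from cMyc+lateCD23int, with limma adjusted p-values of 0.188, 0.194 and 0.544. After centring in GC bins these differences were 1.05, 1.10 and 1.16, and the cMyc+lateCD23lo libraries (243 to 498) were still below all cMyc+early and cMyc+lateCD23int libraries.

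Traf1 (ENSMUSG00000026875, minus strand of chr2:34941750-34961772), which encodes an adaptor that binds TRAF2 at TNF receptor family members, was at 1691, 2307, 1999 and 1802 in cMyc+prePB, 1399, 1744, 1238 and 1563 in cMyc+early, 1501, 1804, 2312 and 1644 in cMyc+lateCD23int and 1106, 1114, 1373 and 877 in cMyc+lateCD23lo. The cMyc+lateCD23lo libraries lay below every cMyc+prePB and cMyc+lateCD23int library, and 1 of the 4 came above the lowest cMyc+early library. The log2 difference to cMyc+lateCD23lo was 0.81 ± 0.19 from cMyc+prePB (limma adjusted p = 0.0843, DESeq2 adjusted p = 0.00718) and 0.70 ± 0.19 from cMyc+lateCD23int (limma adjusted p = 0.544). After centring in GC bins these were 0.61 and 0.59 (adjusted p = 0.148 and 0.652), without overlap in either.

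Counted over the members, cMyc+prePB against the other 3 gave 6 positive log2 differences of 10, with a median of 0.35, where the median over all 12505 genes was 0.0030. In limma 0 members and 39 genes (0.312%) passed after adjustment, and 5 members and 11.1% of genes had an unadjusted p-value under 0.05. Centred in GC bins, 7 of 10 differences were positive, with a median of 0.26 (all genes 0.017). There, 4 members and 1397 genes had an unadjusted limma p-value under 0.05. In DESeq2, 2 members passed, Nfkbia as higher and Rel as lower, beside 224 genes of all (1.79%). Against cMyc+early alone 0 members and 24 genes (0.192%) passed in limma, and against cMyc+lateCD23int 0 members and 18 genes (0.144%), with unadjusted p-values under 0.05 for 3 members (8.58% of genes) and 2 members (8.77% of genes). By DESeq2 0 members passed in the former, beside 131 genes of all (1.05%), and 1 member, Rel, in the latter, beside 130 (1.04%). Against cMyc+lateCD23lo the differences were larger, 7 of 10 positive with a median of 0.81 (all genes -0.0064). In limma 0 members and 33 genes (0.264%) passed there, and 7 members and 12.7% of genes had an unadjusted p-value under 0.05. After centring in GC bins the median was smaller, 0.64 (all genes 0.0027), and 5 members and 1530 genes had an unadjusted limma p-value under 0.05. DESeq2 called 3 members there, Nfkbia, Nfkbie and Traf1, beside 275 genes of all (2.2%). Non-overlapping higher values in cMyc+prePB were seen for the same 3 members, beside 3.01% of all genes.

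Along the cMyc+early, cMyc+lateCD23int and cMyc+lateCD23lo subpopulations, no member passed at either step or over both. Between cMyc+early and cMyc+lateCD23int 0 members passed in limma, DESeq2 and edgeR, beside 1 gene of all in limma (0.008%) and 20 in DESeq2 (0.16%), and 0 members had an unadjusted p-value under 0.05 in limma, compared with 3.71% of genes. Between cMyc+lateCD23int and cMyc+lateCD23lo 9 of 10 log2 differences were positive, with a median of 0.53 (all genes 0.016). Here 0 members passed in limma, edgeR and DESeq2, beside 1 gene of all in limma (0.008%) and 15 in DESeq2 (0.12%), and 3 members, Nfkbia, Tnfaip3 and Traf1, had an unadjusted p-value under 0.05, compared with 6.28% of genes. Centred in GC bins, 8 of 10 differences were positive, with a median of 0.43 (all genes -0.0014). There, 2 members and 817 genes had an unadjusted limma p-value under 0.05. Values were higher without overlap in cMyc+lateCD23int for Nfkb1, Tnfaip3 and Traf1, beside 1.91% of all genes. Between cMyc+early and cMyc+lateCD23lo 0 members passed in limma, edgeR and DESeq2, beside 35 genes of all in limma (0.28%) and 174 in DESeq2 (1.39%). An unadjusted p-value under 0.05 in limma was found for 4 members, Nfkb1, Nfkb2, Tnfaip3 and Traf1, and for 10.3% of genes, and Nfkb1 and Tnfaip3 were higher in cMyc+early without overlap, beside 2.86% of genes. Centred in GC bins, 3 members and 1297 genes had an unadjusted limma p-value under 0.05. These comparisons share libraries and their differences are not independent of each other.

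**Figure D3:**
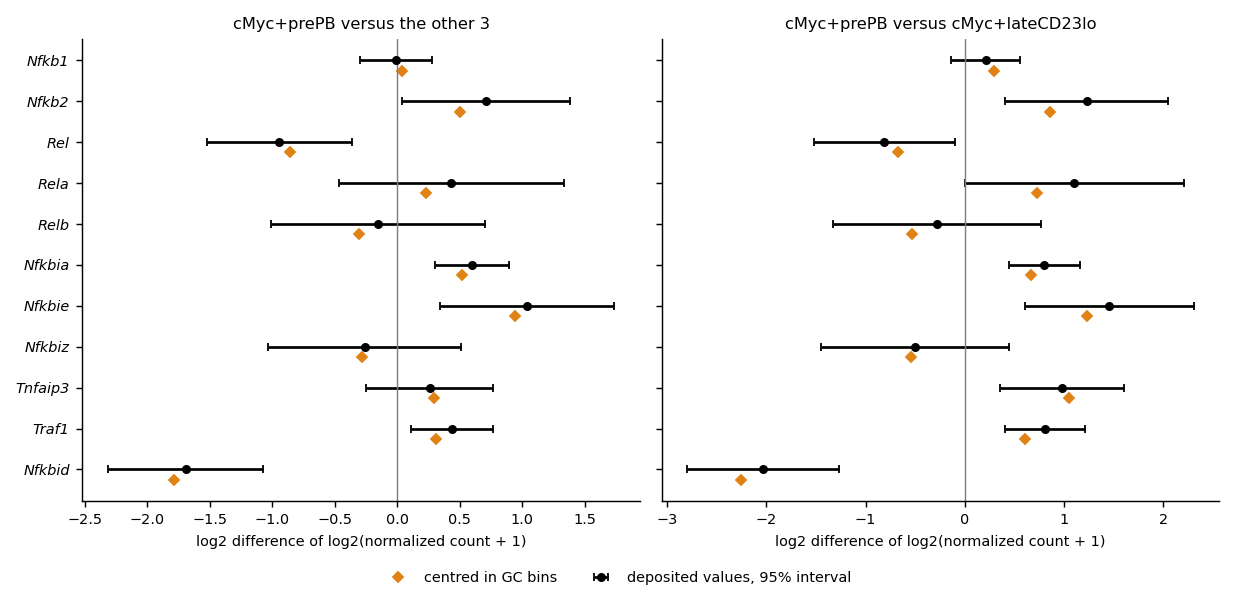
Log2 differences (x axis, on log2(normalized count + 1)) of the 10 members and Nfkbid between cMyc+prePB and the other 3 subpopulations (left) or cMyc+lateCD23lo (right), with 95% intervals of the limma fit (black) and the values after centring in GC bins (orange). The largest differences on both sides are those of Nfkbid, at -1.69 and -2.03, while the interval of Nfkb1 includes 0 in both panels.

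Of the IkB family genes outside the 10 members, Nfkbid passed. It encodes IkBNS, a cofactor needed for the plasma cell response of B cells. Nfkbid (ENSMUSG00000036931) lies on the plus strand of chromosome 7, from 30421732 to 30428746 in GRCm38. Its normalized counts were 313, 90.1, 124 and 156 in cMyc+prePB, 268, 375, 256 and 376 in cMyc+early, 451, 665, 904 and 547 in cMyc+lateCD23int and 912, 649, 481 and 550 in cMyc+lateCD23lo. The cMyc+prePB libraries lay below all libraries of both late subpopulations, and all cMyc+early libraries lay below all of both as well, whereas library 1 of cMyc+prePB was above 2 of the 4 cMyc+early libraries. The log2 difference of cMyc+prePB was -1.69 ± 0.30 to the other 3 (limma adjusted p = 0.0107), -2.02 ± 0.36 to cMyc+lateCD23int (limma adjusted p = 0.0249) and -2.03 ± 0.36 to cMyc+lateCD23lo (limma adjusted p = 0.0164). Against cMyc+early it was -1.03 ± 0.36 (limma adjusted p = 0.403), and the differences of cMyc+early to both late subpopulations did not pass either. Centred in GC bins, the 3 differences that passed were -1.79, -2.03 and -2.26 (adjusted p = 0.00732, 0.0243 and 0.00649). The first lost its call without cMyc+prePB library 2 (-1.44, adjusted p = 0.0685) or 3 (-1.59, adjusted p = 0.0542). The second lost it without any 1 of cMyc+prePB libraries 2 to 4 or of the 4 cMyc+lateCD23int libraries (adjusted p = 0.0530 to 0.114), in edgeR (adjusted p = 0.0616, or 0.0623 with TMM scaling), without the trend (0.0545), without the filter on low values (0.05 after rounding) and in a fit of only the 2 subpopulations compared (0.151). The third lost it without cMyc+prePB library 2, 3 or 4 or cMyc+lateCD23lo library 1 or 2 (adjusted p = 0.0504 to 0.0630) and in a fit of only the 2 subpopulations (0.0995).

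The other IkB genes of the pathway list did not pass. Nfkbib, which encodes IkB beta, was at 910, 2256, 1760 and 2665 in cMyc+prePB and 920 to 1947 in the other 12 libraries, with a log2 difference of 0.45 (95% interval -0.046 to 0.95). Bcl3, which encodes a nuclear cofactor of p50 and p52 dimers, was at 131, 294, 276 and 288 in cMyc+prePB and 36.7 to 331 in the others, with a log2 difference of 0.85 (95% interval -0.17 to 1.87). Both overlapped between all subpopulations, so that of the 6 IkB family genes 1, Nfkbid, passed and was lower in cMyc+prePB, while Nfkbia, Nfkbie, Nfkbib and Bcl3 had positive log2 differences to the other 3 and Nfkbiz a negative one.

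Ratios of 2 genes within a library do not depend on the scaling between libraries, and some were computed after the values above had been seen, as a description without a test. These ratios were not centred in GC bins, and Rel, Nfkbia and Nfkb2 differ in GC content (42.5%, 52.9% and 59.4%). How often the ratios of other genes separate in this way was not computed. There were 5.62, 8.57, 16.1 and 5.95 Nfkbia reads per Rel read in cMyc+prePB, 3.56, 2.69, 3.63 and 3.37 in cMyc+early, 2.72, 2.06, 2.33 and 3.31 in cMyc+lateCD23int and 1.62, 2.61, 3.85 and 3.23 in cMyc+lateCD23lo. All 4 cMyc+prePB libraries were above the other 12 by this measure. After centring in GC bins, Nfkbia and Rel stood at 9090 and 1962 in cMyc+prePB library 4. In cMyc+lateCD23lo library 3 they stood at 7686 and 1725. By the centred values, Nfkbia relative to Rel was still higher in every cMyc+prePB library than in the other 12, but these 2 libraries were close to each other. The share of Rel among the reads per kb of the 5 subunits was 39.2%, 30.9%, 18.6% and 24.6% in cMyc+prePB, 47.3%, 44.0%, 37.5% and 30.04% in cMyc+early, 55.0%, 59.0%, 43.2% and 38.8% in cMyc+lateCD23int and 62.8%, 44.3%, 46.1% and 45.4% in cMyc+lateCD23lo. Rel thus held a mean of 28.3% of the subunit reads per kb in cMyc+prePB and 49.6% in cMyc+lateCD23lo, without overlap between these. Nfkb2 held a mean of 18.0% (range 11.04% to 22.4%) and 7.69% (range 5.79% to 8.40%), also without overlap. These shares use the merged exon lengths. The longest transcripts are shorter than these for every subunit but Rel, so that with them each share of Rel would be lower. There were 36.8 to 144 Nfkbia reads per Nfkbid read in cMyc+prePB, 18.2 to 37.3 in cMyc+early, 9.61 to 23.2 in cMyc+lateCD23int and 9.11 to 15.3 in cMyc+lateCD23lo.

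**Figure D4:**
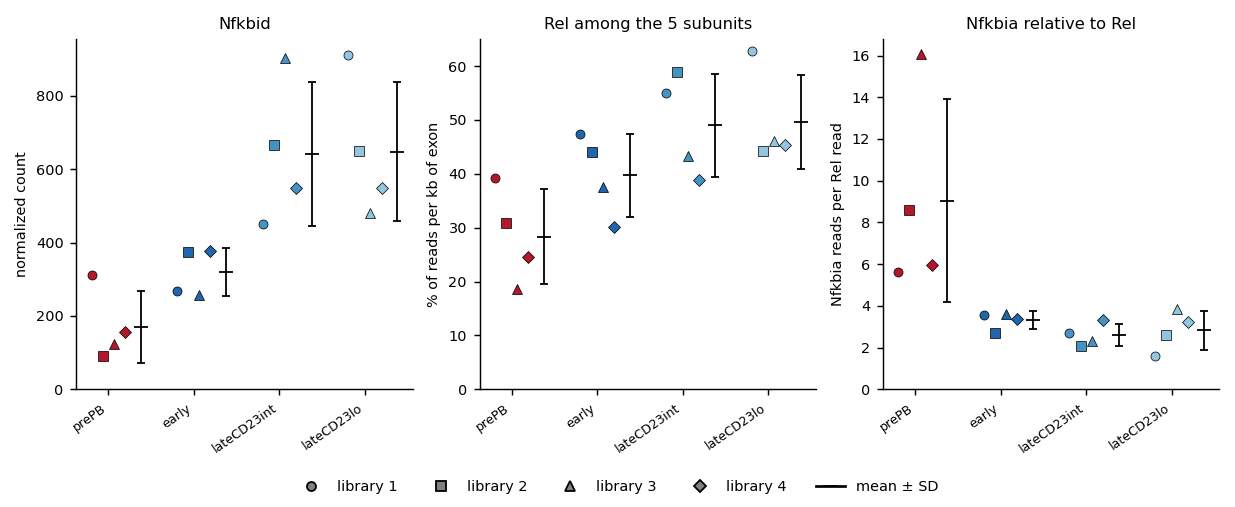
Normalized counts of Nfkbid (left), the share of Rel among the reads per kb of exon of the 5 subunits in % (middle) and Nfkbia reads per Rel read (right) in the 4 libraries of each subpopulation, with mean ± SD and all y axes from 0. The cMyc+prePB libraries have the lowest mean Nfkbid (171) and the lowest mean share of Rel (28.3%), and every one of them has more than 5 Nfkbia reads per Rel read where the other 12 have fewer than 4. These values are not centred in GC bins.

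Upstream and downstream of the members, a list of 87 other pathway genes was described, of which 83 could be tested. Between cMyc+prePB and the other 3, 3 passed as higher and 1 as lower, beside 0.312% of all genes, with a median log2 difference of 0.15 (all genes 0.0030). None of the 9 receptor genes, 20 adaptor and ubiquitin ligase genes, 8 kinase genes and 11 other inhibitor genes tested passed in this comparison in limma, although 3 receptors, 2 adaptors, 0 kinases and 1 inhibitor had an unadjusted p-value under 0.05, compared with 11.1% of all genes. The 3 receptors were Cd79a and Cd79b, the signaling chains of the B cell receptor, and Tnfrsf1b, the adaptors were Prkcb and Traf5 and the inhibitor was Tax1bp1. Of these, Tnfrsf1b and Traf5 are named after their values were seen. The genes that passed as higher were all among 32 tested target genes, namely Batf, Ccnd2 and Stat5a. Of these 32, 24 had positive log2 differences, with a median of 0.42. The list was chosen with earlier results of these data known, and the authors had reported Batf and Ccnd2 as higher in cMyc+prePB. These counts are therefore a description and no independent evidence. Of the 9 receptors tested, 4 had positive log2 differences, the largest 1.61 for Tnfrsf1b. The receptors of highest mean all had negative log2 differences, Cd79b -0.60, Cd79a -0.35 and Tnfrsf13c, the BAFF receptor, -0.20. Of the kinases of highest mean, Ikbkb was at -0.11, Tbk1 at 0.48 and Chuk at -0.13, and of the ubiquitin ligases Birc3 was at 0.37 and Birc2 at 0.023, beside -0.66 for the kinase Prkcb in the same sublist. Of the other inhibitors of highest mean, Tax1bp1 was at -0.35, Tank at -0.16 and Cyld, a deubiquitinase, at 0.031, and of the target genes Cd83 was at -0.049, Plek at -0.36 and Cd86 at -0.29. Against cMyc+lateCD23lo the same 4 genes passed and Ebi3 as well, beside 0.264% of all genes, with a median of 0.36 over the 83 genes (all genes -0.0064). Il10 passed as lower in cMyc+early than in each of cMyc+prePB, cMyc+lateCD23int and cMyc+lateCD23lo, and Ccnd2 as higher in cMyc+early than in cMyc+lateCD23lo. In these 3 comparisons of cMyc+early, 0.192%, 0.008% and 0.28% of all genes passed in limma. The cMyc+early counts of Il10 (0 to 2.10) lay under a floor of 3 reads, so that the size of its differences is uncertain. Il10 was at 39.7 to 112 in cMyc+prePB, 44.6 to 127 in cMyc+lateCD23int and 84.6 to 199 in cMyc+lateCD23lo. None passed between cMyc+lateCD23int and cMyc+lateCD23lo in limma, where 14 of the 83 had an unadjusted p-value under 0.05, compared with 6.28% of all genes.

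Stat5a, which encodes a transcription factor activated by cytokine receptors, was at 1461, 971, 1313 and 1489 in cMyc+prePB, 867, 635, 717 and 904 in cMyc+early, 472, 467, 677 and 492 in cMyc+lateCD23int and 754, 457, 369 and 659 in cMyc+lateCD23lo. All cMyc+prePB libraries were above the other 12, and the log2 difference was 1.10 ± 0.21 (limma adjusted p = 0.0202), or 1.01 after centring in GC bins (adjusted p = 0.0567). Without cMyc+prePB library 1, 3 or 4 its adjusted p-value was 0.0520, 0.0693 and 0.120. Ebi3, which encodes a subunit shared by the cytokines IL-27 and IL-35, was at 1721, 1185, 1819 and 1935 in cMyc+prePB and at 1051, 789, 555 and 503 in cMyc+lateCD23lo. That log2 difference of 1.24 ± 0.23 passed (limma adjusted p = 0.0245), but not after centring in GC bins, where it was 1.01 (adjusted p = 0.0934). Nor did it pass without cMyc+prePB library 3 or 4 or cMyc+lateCD23lo library 3 or 4 (adjusted p = 0.0854 to 0.112), without the filter on low values (0.0523), without the trend (0.0594) or in a fit of only the 2 subpopulations (0.106).

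The members were also compared with each other over the libraries, after the mean of each subpopulation had been removed. Of the 45 pairs, 35 had a positive Pearson correlation, with a median of 0.19 and a range of -0.35 to 0.78, over 16 libraries that all members share. The highest were Rela with Nfkbie (0.78), Nfkb2 with Rela (0.68) and Nfkb2 with Nfkbie (0.67), 3 genes with a GC content of 59.4% (Rela and Nfkb2) and 55.4% (Nfkbie), at or above percentile 84.0 of all tested genes. After centring in GC bins these correlations were 0.56, 0.35 and 0.14, whereas that of Nfkb2 with Rel went from 0.45 to 0.74 and was then the highest of the 45. Rel and Nfkbiz, with a GC content of 42.5% and 50.1%, had 0.59 before and 0.51 after. Over the same libraries and without removing the means, the genes most like Nfkbia, the member with the lowest p-value across the 4 subpopulations, were Man1a2 (0.82), Trnau1ap (0.81) and Rbakdn (0.79).

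**Figure D5:**
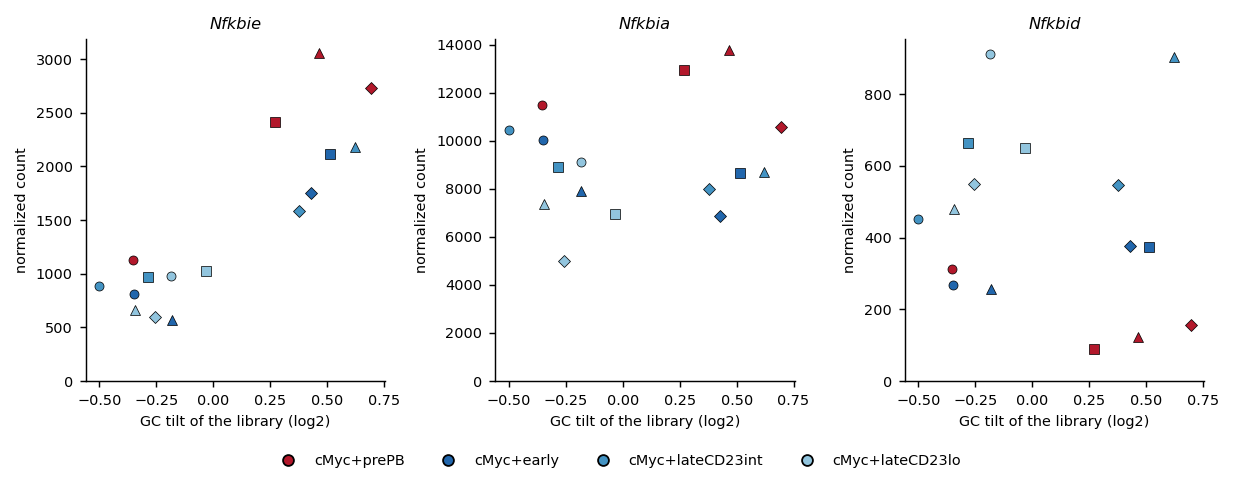
Normalized counts (y axis, from 0) of Nfkbie, Nfkbia and Nfkbid in the 16 libraries against the GC tilt of each library (x axis, log2), with 1 color per subpopulation and the library numbers as circles, squares, triangles and diamonds for 1 to 4. Nfkbie is higher in libraries of higher tilt (correlation of 0.91 within subpopulations), and the correlations of Nfkbia and Nfkbid are -0.29 and 0.097.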

How the data were processed

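Total RNA of 4 cMyc+ GC B cell subpopulations was sequenced in 16 libraries. The signal deposited by the authors is a normalized count, with every gene of a library divided by the same size factor. The submitters' processing notes name Trimmomatic 0.36, STAR 2.5.2a, RSEM 1.2.31, DESeq2 1.20.0 and build GRCm38. Whole reads were recovered for 100% of values (within 0.01 read), 19812080 to 25795815 per library. A floor of 3 reads covers counting error only. Columns were assigned by the names in the labels. The limma test (3.58.1, R 4.3.3) used log2 values with a pseudocount of 1, which understates changes of low genes, in 1 model with all 16 libraries and a trended prior variance. It covered 12505 genes whose mean was 10 or more, and p-values were adjusted over all of them by the Benjamini-Hochberg method. edgeR 4.0.16 and DESeq2 1.42.0 were run on the recovered reads. The statistics were checked on simulated counts. GC content is that of the longest GENCODE vM21 transcript, found for 99.7% of tested genes. All members are named, and of the pathway list the genes that passed and up to 3 of highest mean per sublist. The members and lists were chosen with earlier results of these data known.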

Additional observations from a re-analysis of the deposited data

How the results depend on the processing

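The count of members that passed was 0 in all 8 comparisons in limma and in edgeR. It stayed 0 under every alternative tried for cMyc+prePB against cMyc+early and for the 3 comparisons among cMyc+early, cMyc+lateCD23int and cMyc+lateCD23lo. For cMyc+prePB against the other 3 it was 1 after rescaling to the same total and 2 in DESeq2, and 0 to 1 with a library left out (1 without cMyc+lateCD23lo library 1). Against cMyc+lateCD23int it was 1 in DESeq2. Against cMyc+lateCD23lo it was 1 with a minimum mean of 50, 1 after rescaling, 1 after quantile normalization and 3 in DESeq2, and 0 to 3 with a library left out (3 without cMyc+prePB library 1, 1 without library 1 of any other subpopulation). Across the 4 subpopulations it was 2 in DESeq2. The log2 difference of Nfkb1 between cMyc+prePB and the other 3 changed sign, to 0.036 after rescaling, 0.0092 in edgeR and in DESeq2, 0.013 in edgeR with TMM, 0.0018 in edgeR with the replicate block and 0.038 after centring in GC bins with or without it, and lay between -0.098 and 0.14 with a library left out. The other 38 of 39 single-gene differences kept their direction in 15 alternatives and with each of 16 libraries left out, and the cause of these shifts was not tested. The labels do not say whether library numbers pair the samples, and the main fit did not use them. Same-numbered libraries correlated above 0.1 in 5 of 24 pairs (-0.13 to 0.17), whereas 11 of 16 libraries correlated best with their own number. That is a hint from the data and not the design. With the replicate block the count was 2 against the other 3, Nfkbia (adjusted p = 0.00787) and Rel (0.0368), beside 211 genes of all, and 1 in edgeR. It was 1 against cMyc+lateCD23int, Rel (0.0330), beside 121 genes, 2 against cMyc+lateCD23lo, Nfkbia (0.00509) and Traf1 (0.0322), beside 192 genes (2 in edgeR), and 1 across the 4 subpopulations, Nfkbia (0.0176), beside 173 genes (1 in edgeR). With centring in GC bins as well it was 1, 0, 1 and 1, beside 153, 91, 177 and 152 genes. Over the alternatives with all libraries kept, genes called of all tested ranged from 27 to 224 for cMyc+prePB against the other 3. Against cMyc+lateCD23lo they ranged from 13 to 275. With a library left out these ranges were 24 to 79 and 16 to 153.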
